A study of Mus musculus with 4 samples.

Results

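Cadherins are calcium-dependent adhesion proteins of the cell surface, and the genes described here are the classical cadherins, the protocadherins that lie outside the clustered arrays, and the large Celsr and Fat cadherins. They were taken from the deposited table by symbol (Cdh, Pcdh, Celsr or Fat followed by a number, protein-coding, without the endothelial gene Cdh5), which gave 41 of 55414 genes. RNA came from the cerebral cortex of C57BL/6J mice on postnatal day 1. Both libraries labelled Control (replicates 2 and 3) have the genotype Mkk7flox/flox, and both labelled cKO (replicates 2 and 3) have the same floxed alleles of Mkk7 with Emx1-Cre. All 4 libraries thus carry the floxed alleles, and no group without them and none with Emx1-Cre alone was analysed here. Emx1-Cre acts in progenitors of the dorsal telencephalon and their descendants, so interneurons, vessels, microglia and most meningeal cells in the tissue are not its targets. MKK7, encoded by Map2k7, is a kinase that activates JNK, and the comparison asks what its loss does in the developing cortex.

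Classical cadherins bind the same or a related cadherin on the next cell and hold the actin skeleton through beta- and alpha-catenin. In the newborn cortex N-cadherin (Cdh2) joins radial glia at the ventricular surface, type II cadherins mark areas, layers and connected nuclei, and delta-protocadherins sort cells and axons and recruit actin regulators. Celsr proteins act in planar polarity and axon tract formation, and Fat4 pairs with Dchs1 between cells.

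The libraries held between 19421470 and 22511175 counts. Map2k7 stood at 38.4 and 30.4 CPM (counts scaled to a common library size) under the Control label and at 47.9 and 48.2 CPM under the cKO label. It was thus not lower under the cKO label, although reads outside a deleted part check nothing; every direction below rests on the labels. The cortical excitatory neuron genes Neurod6, Neurod2 and Tbr1 were read in all libraries, with Neurod6 between 343 and 523 TPM (the authors' unit, which also divides by transcript length). Library cKO 3 had 0 counts of Xist and 985 of the Y-linked gene Ddx3y, against 1004 to 1218 and 0 in the others. The summed level of 5 choroid plexus genes was 1101 and 446 TPM in Control 2 and cKO 2 but 14.5 and 10.3 TPM in Control 3 and cKO 3. Ttr alone gave 1067, 10.1, 429 and 7.35 TPM in Control 2, Control 3, cKO 2 and cKO 3. The 10 striatal neuron genes summed to 447 and 324 TPM in the Control libraries and to 110 and 135 TPM in the cKO libraries, and each was lower in both cKO libraries than in both Control libraries. The 8 interneuron genes summed to 2008 and 1861 against 1680 and 1454 TPM. The 6 meningeal fibroblast genes summed to 86.7 and 110 against 139 and 140 TPM.

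Levels between genes are compared here in TPM, and are means over the 4 libraries. The genes fell into a few abundant and many scarce members. T-cadherin (Cdh13), which lacks the cytoplasmic tail and is held in the membrane by a lipid anchor, was the highest at 145 TPM. Next were the activity-regulated protocadherin Pcdh8 at 80.0 TPM, Cdh2 at 75.8 TPM and R-cadherin (Cdh4) at 56.6 TPM. These 4 genes made up between 59.4% and 61.4% of the members' summed TPM in each library. Cdh13 ranked first in every library. The ranks of the next 3 were not fixed: Pcdh8 was second in 3 libraries, Cdh2 was second in cKO 2, and Cdh4 stood above Cdh2 in Control 2. In all, 7 members had at least 20 TPM, 14 between 5 and 20, 10 between 1 and 5, and 10 under 1 TPM.

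**Figure D1:**
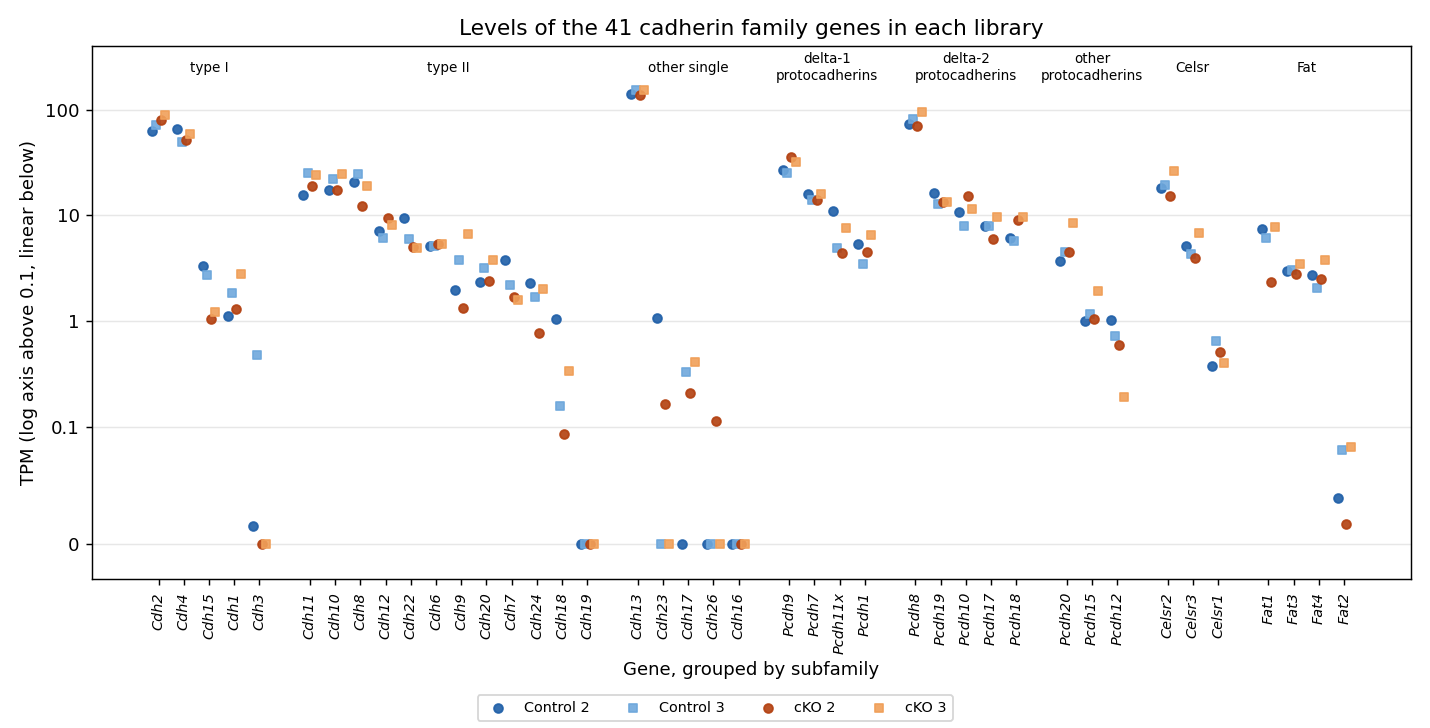
TPM of each of the 41 genes (x axis, grouped by subfamily) in each of the 4 libraries (points), on an axis that is logarithmic above 0.1 and linear below. Cdh13, Pcdh8, Cdh2 and Cdh4 stand highest, between 49.8 and 153 TPM, while Cdh16 and Cdh19 lie at 0 in every library.

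The scarce members included genes best known from other organs or cell types. P-cadherin (Cdh3) had 1 and 32 counts in Control 2 and Control 3 and 0 in both cKO libraries. Cdh23, whose protein forms the tip links of inner-ear hair cells with Pcdh15, had 23, 0, 5 and 0 counts in Control 2, Control 3, cKO 2 and cKO 3. Cdh26 had 5 counts in cKO 2 and 0 elsewhere. The kidney cadherin gene Cdh16 and the glial gene Cdh19 had 0 counts in all 4 libraries, which allows up to 0.131 to 0.158 CPM by counting error alone. These 5 genes did not pass the filter on low counts, so 36 of the 41 were tested. Cdh18, the intestinal gene Cdh17, the cerebellar granule cell gene Fat2, Celsr1 and the endothelial protocadherin gene Pcdh12 were tested although they had means between 0.0548 and 0.627 TPM. Cdh17 had 0, 17, 11 and 23 counts and Cdh18 had 28, 3, 2 and 12 counts in the order used for Cdh23, with no common direction between the labels.

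Promoter sequence varied among the members that could be scored. RefSeq sequences (build GRCm38.p6) were at hand for 28 of the 41 genes, among them Pcdh8 but not Cdh13, Cdh2 or Cdh4. The 250 bases before the first listed start were scored for the dinucleotide CG, which reads the same on both strands. The members had a median of 10.5 CG, with a range from 0 to 32, against a median of 6 over 27025 genes. Those 27025 genes were not filtered by gene type or level, whereas every member is protein-coding. At least 10 CG were found in 15 of the 28 members and in 38.2% of all genes. The 4 scored members under 1 TPM, of 10 such members, had at most 8 CG. The scored members at or above 1 TPM ranged from 2 to 32. The motif TATAAA on either strand was found in 2 of 28 members, Pcdh8 and Pcdh15, and in 13% of all genes. The listed start lay within 50 bases of a GENCODE M21 start for 21 of the 28. The 4 promoters below, all with a start that matches GENCODE exactly, show this spread: the TATAAA-bearing Pcdh8, the CG-rich Pcdh18 and Cdh8 (23 and 20 CG), and Cdh10, which had 2 CG although its level of 20.3 TPM was close to the 19.1 TPM of Cdh8. Every CG is in capitals.
Pcdh8 (chr14:79771313-79771562, - strand): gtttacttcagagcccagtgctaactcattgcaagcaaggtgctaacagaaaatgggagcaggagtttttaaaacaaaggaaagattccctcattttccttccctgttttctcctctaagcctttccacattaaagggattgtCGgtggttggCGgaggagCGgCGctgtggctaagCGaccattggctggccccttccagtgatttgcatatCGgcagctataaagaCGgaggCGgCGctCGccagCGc
Pcdh18 (chr3:49757317-49757566, - strand): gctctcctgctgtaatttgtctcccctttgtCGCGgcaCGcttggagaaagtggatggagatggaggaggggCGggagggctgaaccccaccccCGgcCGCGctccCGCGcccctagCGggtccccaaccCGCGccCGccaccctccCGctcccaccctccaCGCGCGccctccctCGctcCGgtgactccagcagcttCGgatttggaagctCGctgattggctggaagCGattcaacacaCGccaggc
Cdh8 (chr8:99416472-99416721, - strand): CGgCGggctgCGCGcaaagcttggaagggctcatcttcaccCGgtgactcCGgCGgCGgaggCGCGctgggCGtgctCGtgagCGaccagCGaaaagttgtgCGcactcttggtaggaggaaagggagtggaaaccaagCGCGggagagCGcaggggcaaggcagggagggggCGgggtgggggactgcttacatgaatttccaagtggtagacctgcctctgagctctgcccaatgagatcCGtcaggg
Cdh10 (chr15:18820079-18820328, + strand): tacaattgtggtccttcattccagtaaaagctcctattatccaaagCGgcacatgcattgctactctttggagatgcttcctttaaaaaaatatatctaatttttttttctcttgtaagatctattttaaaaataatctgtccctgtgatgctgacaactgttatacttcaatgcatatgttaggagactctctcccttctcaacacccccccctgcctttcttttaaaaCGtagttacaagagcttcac
These letters describe the windows and were not tested against the levels.

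Several related members follow each other on a chromosome, with no account taken of other genes between them. Their levels were close in some pairs and far apart in others. On chromosome 15 (GRCm39, deposited coordinates) the type II genes Cdh6, Cdh9, Cdh10, Cdh12 and Cdh18 follow each other with gaps of 3.56, 1.96, 1.44 and 0.959 Mb. Their means were 5.23, 3.42, 20.3, 7.66 and 0.408 TPM in that order. On chromosome 8, Cdh3 and Cdh1 are 46054 bases apart, at 0.124 and 1.77 TPM, and Cdh8 and Cdh11 are 3.22 Mb apart, at 19.1 and 20.96 TPM. Cdh7 and Cdh19 are 0.748 Mb apart on chromosome 1, at 2.30 and 0 TPM. Pcdh8, Pcdh17, Pcdh20 and Pcdh9 follow each other on chromosome 14 with gaps of 4.67, 3.93 and 4.54 Mb. Their means were 80.0, 7.89, 5.26 and 29.7 TPM. Pcdh1 and Pcdh12, 55036 bases apart on chromosome 18, stood at 4.97 and 0.627 TPM.

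None of the 36 tested members passed the threshold between the labels (edgeR's quasi-likelihood test, Benjamini-Hochberg adjusted p below 0.05 over all 17017 tested genes). Over all tested genes 0.00588% passed as higher and 0.0411% as lower under the cKO label (1 and 7 genes). DESeq2 and limma-voom called no member either, where they called 1.09% and 0.047% of all genes. Under an unadjusted threshold of 0.05 edgeR listed 6 of the 36 members, against 10.9% of all tested genes. Of these, 4 were higher and 2 lower, against 5.28% and 5.66% of all tested genes. The groups did not overlap in CPM for 16 of the 36 members, against 44.1% of all tested genes, so that share is near the background. In 10 of them the cKO libraries were higher and in 6 lower, against 22% and 22.2% of all tested genes. Log2 fold changes (cKO minus Control, here and below) were positive for 21 and negative for 15 members, with a median of 0.14, while 49.8% of all tested genes were positive and their median was -0.0021. Each group has 2 libraries. By their Xist and Ddx3y counts cKO 2 and cKO 3 came from different animals. The labels do not say this of Control 2 and Control 3, so the spread between those may not be a spread between animals. Their choroid plexus sums differed, at 1101 and 14.5 TPM, mostly through Ttr. Folr1, Clic6 and Aqp1 were also higher in Control 2, whereas Kl was higher in Control 3. Control 2 and Control 3 thus differed in their choroid plexus RNA.

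**Figure D2:**
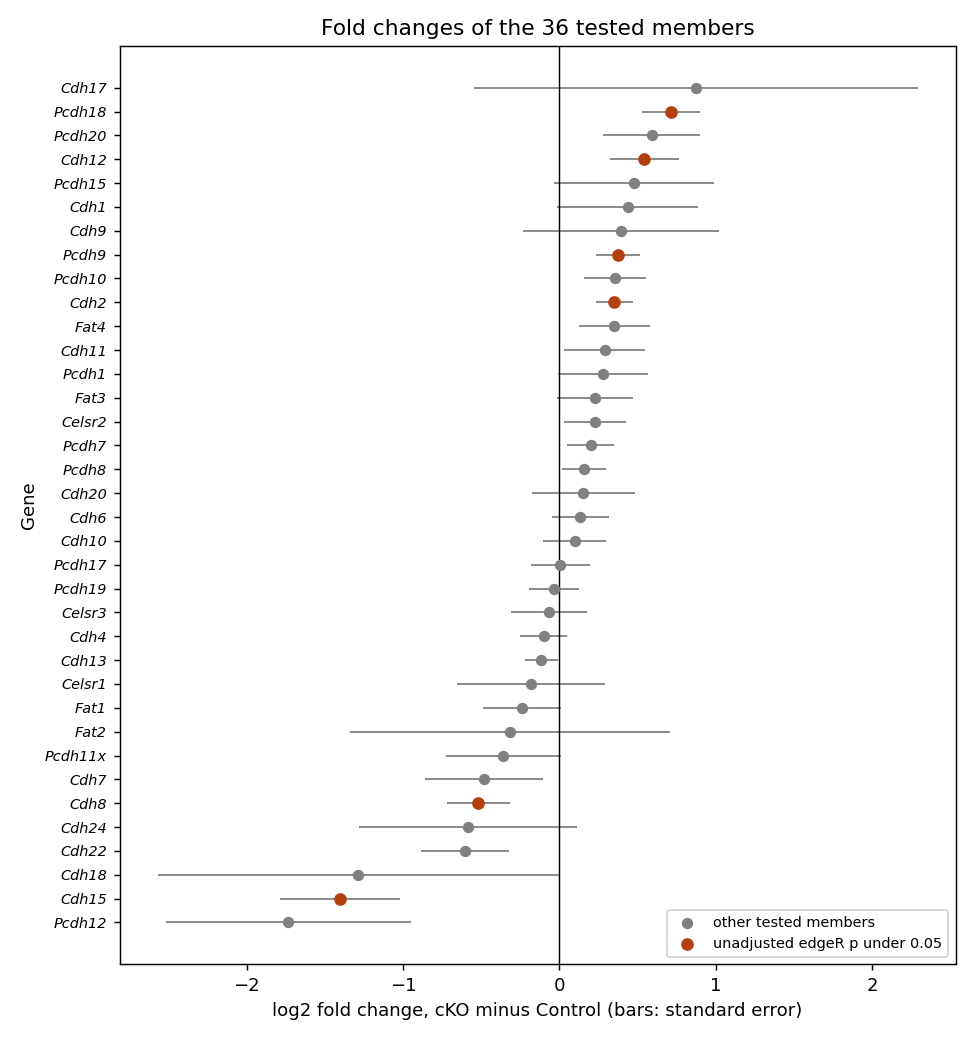
Log2 fold change of each of the 36 tested members (x axis, cKO minus Control) with its standard error as a bar, ordered by size. Coloured points are the 6 members listed under the unadjusted threshold, from Cdh15 at -1.40 to Pcdh18 at 0.71; no point passed after adjustment.

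Of the type I cadherins, Cdh2 (chromosome 18, 16721934 to 16942303) had 185 and 210 CPM in the Control libraries and 252 CPM in each cKO library. Both cKO libraries lay above both Control libraries (log2 fold change 0.35 ± 0.12 SE, n = 2 per group, adjusted p = 0.399 by edgeR). The excitatory neuron list, with 5 of 6 genes positive and Bcl11b negative, summed to 648 and 755 against 812 and 889 TPM in the same libraries. The radial glia list, with 2 genes positive and 4 negative, summed to 2519 and 2502 against 2334 and 2197.5 TPM. Most of this sum came from Fabp7, at 2265 and 2229 against 2070 and 1909.5 TPM. In CPM the groups of 4 radial glia genes overlapped, Fabp7 among them, while Vim was apart and higher and Sox2 apart and lower. The part of either list in the values of Cdh2 was not tested. In whole tissue, fewer cells of a type and less RNA per cell cannot be told apart. M-cadherin (Cdh15; chromosome 8, 123574705 to 123594136), best known from muscle and cerebellar granule cells, stood at 7.43 and 6.35 CPM against 2.58 and 2.63 CPM, from 146, 125, 49 and 60 counts. The groups were apart, with a log2 fold change of -1.40 ± 0.38 SE (adjusted p = 0.338 by edgeR). The striatal genes given above were also apart in this direction in 10 of 10 cases, against 22.2% of all tested genes. Their part in the values of Cdh15 was not tested. Cdh4 stood at 243, 191, 189 and 215 CPM in Control 2, Control 3, cKO 2 and cKO 3, with overlapping groups. E-cadherin (Cdh1), the epithelial type, stood at 3.82, 6.40, 4.79 and 9.02 CPM in the same order, again with overlap.

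Cdh13 (chromosome 8, 119010472 to 120051660), which acts as a negative guidance cue and a receptor for adiponectin, stood at 266 and 278 CPM in the Control libraries against 247 and 254 CPM. Both cKO libraries were the lower ones (log2 fold change -0.12 ± 0.11 SE, adjusted p = 0.726 by edgeR). In TPM its groups overlapped, at 141 and 153 against 136 and 152.

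Type II cadherins showed listed members in both directions. Cdh8 (chromosome 8, 99751103 to 100143103) stood at 53.4 and 61.9 CPM in the Control libraries and at 34.0 and 46.4 CPM in the cKO libraries. It marks sets of cortical and hippocampal neurons. The groups did not overlap, and cKO 2 was the lowest of all 4 libraries (log2 fold change -0.52 ± 0.20 SE, adjusted p = 0.431 by edgeR). Marker genes of other cell types were lower in the same libraries, with 10 of 10 striatal and 6 of 8 interneuron genes apart. So were 3 of 5 thalamic genes, where 22.2% of all tested genes were apart and lower. In the excitatory neuron list 4 of 6 genes were apart and higher and 1 was apart and lower. The thalamic gene Gbx2, named after its values were seen, had 30 and 52 counts in the Control libraries and 0 in both cKO libraries. The thalamic genes Rora and Slc17a6 had overlapping groups, with log2 fold changes of 0.09 and 0.01. The thalamic sum was 27.9 and 30.3 against 21.9 and 26.5 TPM. The part of these cells in the values of Cdh8 was not tested. Cdh12 (chromosome 15, 20449351 to 21589619) stood at 20.6 and 20.05 CPM against 33.6 and 25.7 CPM, so both cKO libraries were the higher ones (log2 fold change 0.54 ± 0.22 SE, adjusted p = 0.439 by edgeR). The deposited count of Cdh12 was not whole in every library, as for Cdh11, Pcdh7, Pcdh8 and Fat4, so part of it rests on fractional assignment of reads. Cdh22 stood at 22.2 and 14.97 CPM against 13.2 and 11.3 CPM and Cdh7 at 6.01 and 5.99 against 4.95 and 3.63 CPM. In both genes the cKO libraries were the lower ones, and neither was listed. Cdh11, the most abundant type II member and also a cadherin of mesenchymal cells, stood at 47.7, 71.7, 57.9 and 87.8 CPM in Control 2, Control 3, cKO 2 and cKO 3. Its groups overlapped, with both libraries numbered 3 above both numbered 2 (log2 fold change 0.29 ± 0.26 SE, adjusted p = 0.718 by edgeR). Cdh10 had the same order, at 39.3, 49.4, 41.8 and 53.1 CPM. So had Cdh20, at 6.98, 9.64, 7.74 and 10.7 CPM. Cdh9, which acts at hippocampal mossy fibre synapses, was uneven within the cKO group, at 4.74, 8.93, 3.58 and 14.3 CPM, a 4.00-fold difference between cKO 2 and cKO 3. Cdh6 was even, at 30.04, 30.05, 34.5 and 31.5 CPM, although its groups were apart. Cdh24 had 82, 80, 18 and 103 counts (4.18, 4.06, 0.948 and 4.51 CPM), so cKO 2 alone was low.

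Among the delta-1 protocadherins, Pcdh9 (chromosome 14, 93250846 to 94128115) was the most abundant, at 77.4 and 71.5 CPM in the Control libraries and 103 and 89.9 CPM in the cKO libraries. The cKO libraries lay above (log2 fold change 0.38 ± 0.14 SE, adjusted p = 0.422 by edgeR). Pcdh7, which binds the phosphatase PP1 through its tail, stood at 58.7, 57.1, 61.7 and 71.2 CPM, and its groups were apart on this scale. In TPM they overlapped, at 15.96, 14.05, 13.95 and 16.04. Pcdh1 stood at 16.0, 10.7, 14.4 and 17.997 CPM, with overlap. The X-linked Pcdh11x (119199956 to 119820316) stood at 46.2, 21.7, 21.1 and 31.8 CPM, with Control 2 the highest and a 2.13-fold difference between the Control libraries (log2 fold change -0.36 ± 0.37 SE, adjusted p = 0.758 by edgeR). The library without Xist counts, cKO 3, lay between the others.

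Of the delta-2 protocadherins, Pcdh18 (chromosome 3, 49697745 to 49711774), whose protein binds the Reelin adaptor Dab1, had the smallest p of the tested members. It stood at 21.6 and 21.9 CPM in the Control libraries and at 35.3 and 35.99 CPM in the cKO libraries, from 425, 431, 670 and 822 counts. The libraries of each group were nearly level and the groups were apart, a fold of 1.64 (log2 fold change 0.71 ± 0.18 SE, adjusted p = 0.317 by edgeR and 0.129 by DESeq2). The meningeal fibroblast list was positive for 5 of 6 genes and the endothelial list for 5 of 6 in the same libraries. The endothelial sum lay between 139 and 150 TPM in all 4, most of it from Cldn5, at 112 to 129 TPM. Cldn5 was apart and lower and the other 5 endothelial genes apart and higher, against 22.2% and 22% of all tested genes. The part of either list in the values of Pcdh18 was not tested. Pcdh10, which guides striatal and thalamocortical axons, stood at 38.2 and 28.9 against 43.7 and 42.3 CPM, with the groups apart. Pcdh8, the most abundant protocadherin gene, stood at 172, 201, 190 and 226 CPM in Control 2, Control 3, cKO 2 and cKO 3, and its groups overlapped (log2 fold change 0.16 ± 0.14 SE, adjusted p = 0.717 by edgeR). Pcdh17, which recruits actin regulators in growing axons, stood at 66.4 and 65.8 CPM in the Control libraries, with the cKO libraries on either side at 54.8 and 77.9 CPM. The X-linked Pcdh19 (132483609 to 132589736), mutated in an epilepsy that affects females, had 105, 82.2, 96.1 and 86.6 CPM, with no gap between groups (log2 fold change -0.03 ± 0.16 SE, adjusted p = 0.964 by edgeR). Its value in cKO 3 lay inside the range of the 3 libraries with Xist counts.

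**Figure D3:**
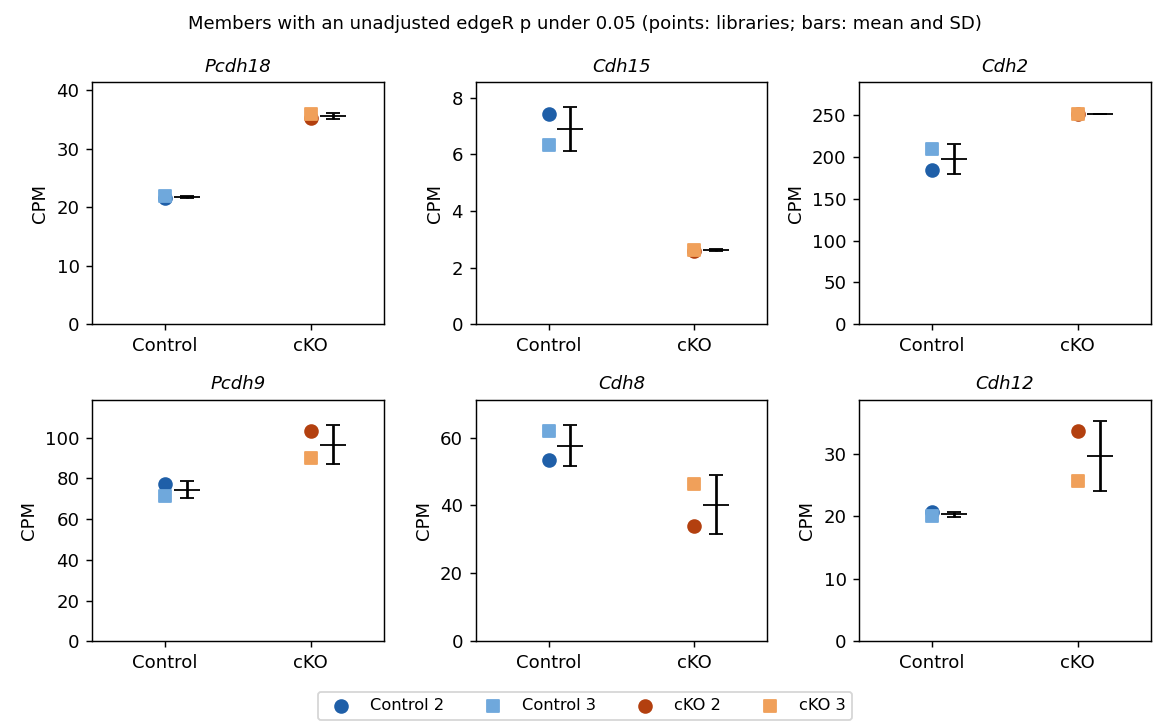
CPM (y axes from 0) of the 6 members listed under the unadjusted threshold in each library (points), with the mean and SD of each group of 2. In all 6 genes the groups are apart; Pcdh18, Cdh15 and Cdh2 have nearly equal cKO libraries, whereas those of Pcdh9, Cdh8 and Cdh12 differ from each other.

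Other protocadherins were scarcer. Pcdh20 stood at 13.1 and 15.5 CPM in the Control libraries and 15.6 and 27.4 CPM in the cKO libraries, so cKO 3 stood apart from the other 3 (log2 fold change 0.59 ± 0.31 SE, adjusted p = 0.533 by edgeR). Pcdh15 had 45, 42, 47 and 84 counts (2.29, 2.13, 2.47 and 3.68 CPM), with cKO 3 again the highest. Pcdh12, named after its values were seen since it lies under 1 TPM, had 65, 47, 26 and 8 counts, which gave the most negative log2 fold change of the members (-1.73 ± 0.78 SE, adjusted p = 0.474 by edgeR). The endothelial list was positive for 5 of 6 genes, among them Cdh5, at 4.07 and 2.54 against 4.16 and 6.87 CPM.

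Of the Celsr genes, Celsr2 stood at 74.95, 69.9, 68.5 and 101 CPM in Control 2, Control 3, cKO 2 and cKO 3 (log2 fold change 0.23 ± 0.20 SE, adjusted p = 0.709 by edgeR). Only cKO 3 lay above the rest. Celsr3, needed for long axon tracts of the forebrain, stood at 39.3 and 39.1 CPM in the Control libraries and at 28.6 and 46.2 CPM on either side of them in the cKO libraries. Fat1 stood at 22.7, 21.8, 15.2 and 22.4 CPM, with cKO 2 alone lower (log2 fold change -0.24 ± 0.25 SE, adjusted p = 0.766 by edgeR). Fat4 stood at 35.5, 27.3, 34.0 and 46.0 CPM, with cKO 3 the highest and overlap between groups. Fat3, which shapes dendrites of retinal neurons, stood at 11.6 and 13.6 against 14.6 and 14.8 CPM, with the groups apart in CPM but not in TPM.

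One library thus recurred as the highest. Of the 36 tested members 19 were highest in cKO 3 and 3 lowest there, while 4 were highest and 13 lowest in cKO 2. Over all tested genes cKO 3 held the highest value in 25.9% and the lowest in 26.4%, and cKO 2 the highest in 27.3% and the lowest in 27.6%. Each gene's log2 CPM was set against its own mean over the libraries; the members' median difference was 0.20 in cKO 3 and -0.10 in cKO 2, against -0.06 and 0.0039 in Control 2 and Control 3. Gene length moved with the same libraries: genes with a deposited length of at least 5000 bases had medians of 0.11 in cKO 3 and -0.05 in cKO 2 (39.5% of them highest in cKO 3), and those under 2000 bases -0.06 and 0.13. Of the tested members, 22 had at least 5000 bases. The 14 shorter members also had their highest median in cKO 3 (0.21) and their lowest in cKO 2 (-0.17). By its Xist and Ddx3y counts cKO 3 was also the only library that reads as male. The parts of gene length and of sex in the members' values were not tested. Without cKO 3 the median log2 fold change of the members was -0.08, and without cKO 2 it was 0.27, so the sign of the median rests on cKO 3. 

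**Figure D4:**
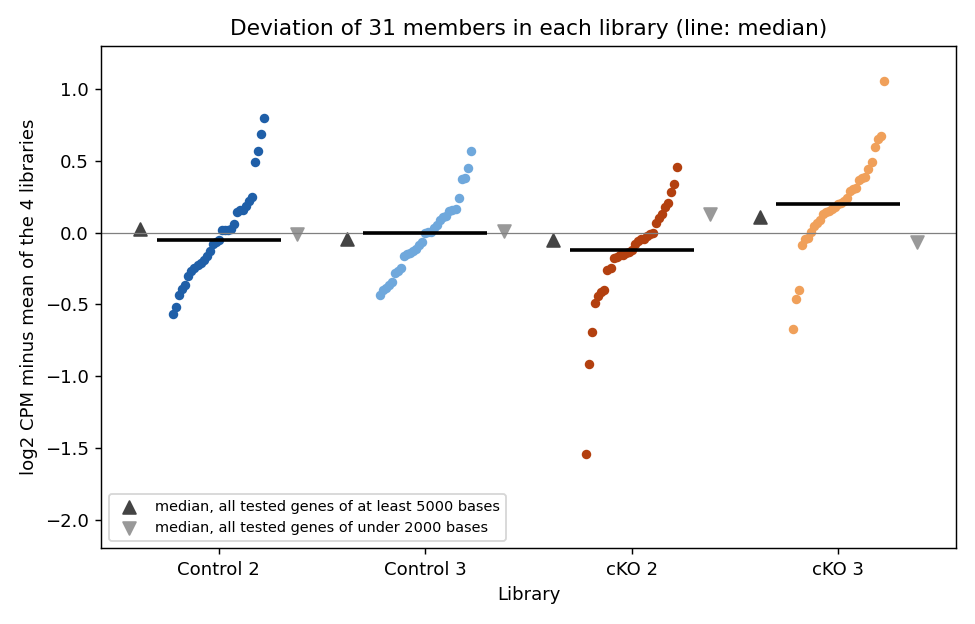
Log2 CPM minus the mean of the 4 libraries (y axis) for the 31 members with a mean of at least 1 TPM (points) in each library, with their median as a line. Triangles give the medians of all tested genes of at least 5000 bases (up) and under 2000 bases (down); the line is highest in cKO 3 (0.20) and lowest in cKO 2 (-0.12), and the long and short genes swap places between these libraries.

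CPM and TPM did not always give the same picture, because the authors' TPM divides by a transcript length that was estimated in each library. The ratio of count to TPM, scaled to the deposited lengths of 769 single-transcript genes, gives that apparent length. Over 28 members with several annotated transcripts and at least 50 counts in every library, the highest apparent length divided by the lowest had a median of 1.09, against 1.10 for all 10669 such genes. Fat1 had the largest ratio of the members, at 1.99, which 1.87% of the genes exceeded. Its apparent length was 4510, 5154 and 4320 bases in Control 2, Control 3 and cKO 3 but 8608 bases in cKO 2. Accordingly its TPM was 7.33, 6.10 and 7.82 against 2.35 in cKO 2, a wider gap than in CPM. For Cdh7 Control 2 was set apart, with 2335 bases against 3479 to 3944 in the other libraries. Its 2 Control libraries, nearly equal in CPM, therefore stood at 3.76 and 2.19 TPM. Pcdh10 had 3825 bases in cKO 2 and 5235 to 5555 in the others, and Cdh11 had 5454 bases in cKO 3 and 4074 to 4507 in the others. Each of these differences lay in 1 library and not between the labels. For Cdh2, Cdh10, Pcdh17 and Cdh8 the ratio was at most 1.03, so both scales gave the same order between groups for Cdh2 and Cdh8.

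**Figure D5:**
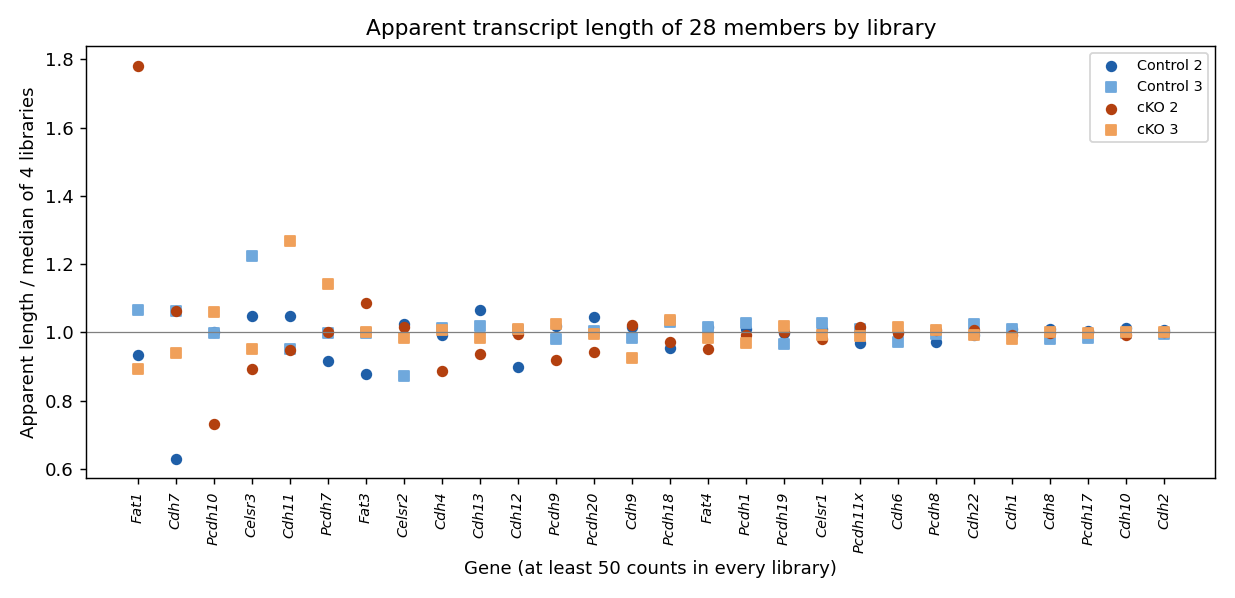
Apparent transcript length in each library divided by the median of the 4 libraries (y axis) for 28 members (x axis, by falling spread). Fat1 in cKO 2, Cdh7 in Control 2, Pcdh10 in cKO 2 and Cdh11 in cKO 3 lie apart, while the members at the right lie close to 1 in every library.

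The proteins that cadherins act through were compared in the same fit. Of 54 partner genes 53 were tested, and none passed the threshold. Their median log2 fold change was 0.09, with 37 positive and 16 negative, where 49.8% of all tested genes were positive. Under the unadjusted threshold 3 of 53 were higher and 2 lower, against 5.28% and 5.66% of all tested genes, which is about the background. The groups were apart for 15 higher and 5 lower genes, where 22% and 22.2% of all tested genes were apart. Of the catenins, beta-catenin (Ctnnb1) stood at 606 and 648 CPM in the Control libraries and 657 and 679 CPM in the cKO libraries, a log2 fold change of 0.09 ± 0.09 SE. Arvcf, a p120-type catenin, was listed under the unadjusted threshold, at 64.8 and 64.3 against 85.0 and 79.5 CPM (log2 fold change 0.35 ± 0.14 SE, adjusted p = 0.431 by edgeR). p120-catenin (Ctnnd1), alpha-E-catenin (Ctnna1) and Ctnnal1 had log2 fold changes of 0.45, 0.32 and 0.60. Ctnnb1 was named for its role after its values were seen.

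Of the junction adaptors and nectins, Nectin2 was listed, at 48.1 and 45.9 against 69.5 and 58.8 CPM (log2 fold change 0.45 ± 0.16 SE, adjusted p = 0.412 by edgeR), with Lima1, Vezt and Vcl at 0.30, -0.26 and 0.34. Of 8 genes of cadherin cleavage 5 were positive and 3 negative, and Psen2, Adam17 and Mmp2 had log2 fold changes of -0.37, 0.26 and -0.21. All but 1 of the 12 WAVE complex genes and other delta-protocadherin partners were positive, against 49.8% of all tested genes. Their median was 0.10, and the groups were apart for 4 and overlapped for 8. Wasf2, Abi2, Fzd7 and Wasf3 stood at 0.60, 0.23, 0.50 and 0.25. Wasf3 had 12.7, 12.3, 11.5 and 18.4 CPM in Control 2, Control 3, cKO 2 and cKO 3. Only cKO 3 thus lay above the Control libraries. The same held for Cyfip1, Cyfip2, Nckap1 and Taok2, named after their values were seen. For Abi1 and Ppp1ca, also named after their values were seen, only cKO 2 lay above the Control libraries. Genes of planar polarity went both ways, 7 positive and 7 negative. The listed members were Dvl1, at 108 and 85.7 against 61.6 and 70.9 CPM (log2 fold change -0.55 ± 0.16 SE, adjusted p = 0.363 by edgeR), and Prickle1, at 46.6 and 42.5 against 67.1 and 55.6 CPM (log2 fold change 0.46 ± 0.17 SE, adjusted p = 0.420 by edgeR). The core polarity genes Vangl1 and Vangl2 stood at -0.83 and 0.25. The Fat4 ligand gene Dchs1, named for its role after its values were seen, stood at 79.8 and 76.1 against 65.8 and 75.9 CPM.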

How the data were processed

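RNA was measured in 4 libraries of newborn mouse cortex, 2 labelled Control and 2 labelled cKO. Per the labels' protocols, TRIzol-purified total RNA was cleared of DNA and amplified with the SMART-Seq v4 kit, which does not mark the strand, so reads of genes that overlap on opposite strands cannot be told apart. The authors used DRAGEN and build GRCm39, per the submitters' processing notes; versions, settings and the annotation release were not given in the sources used here. Values are estimated counts deposited by the authors (12% to 13.5% of rows not whole in a library) and their deposited TPM, which sums to the same total in each library.

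The deposited estimated counts were rounded. Genes were filtered with filterByExpr and compared with edgeR (version 4.0.16, R 4.3.3) by the quasi-likelihood test on TMM-scaled libraries, with the genotype as the only term. P-values were adjusted over all 17017 tested genes, with no test over the members alone. SE is the absolute log2 fold change over the square root of F. CPM values use the TMM-scaled totals; levels between genes use the authors' deposited TPM, on which no test rests. The members and gene lists were chosen with earlier results of these data known. Rule for named genes: members with a mean of at least 1 TPM by library; fold changes for those under an unadjusted p of 0.05, the most abundant of each subfamily and X-linked ones; up to 4 partners with the smallest p per list. Other settings tried were DESeq2 (1.42.0), limma-voom (3.58.1), scaling by RLE or the upper quartile, a filter at a mean of 1 CPM or none, robust shrinkage, a replicate block, only protein-coding genes, and the loss of each library. Promoters are from RefSeq, build GRCm38.p6, and no coordinate was converted. Single values of some listed genes are not reported here.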

Additional observations from a re-analysis of the deposited data

How the results depend on the processing

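No alternative called a member or a partner gene in either direction. Over all genes, 1 higher and 7 lower became 21 and 37 without a filter, 80 and 105 with DESeq2, 2 higher at a mean CPM of at least 1, 3 higher with limma-voom and 3 higher over protein-coding genes only; leaving out any 1 library gave 0 to 0 in both directions. Of 36 members, 19 kept their sign under all 13 alternatives. Pcdh17 was at -0.0037 without a filter, -0.0040 with limma-voom and -0.0165 with the replicate block, and Pcdh19 at 0.0065 with upper-quartile scaling, against 0.0052 and -0.03. Without 1 library the log2 fold changes that turned sign ranged as follows: Cdh1 -0.091 to 0.86, Cdh10 -0.085 to 0.27, Cdh11 -0.043 to 0.61, Cdh17 -0.12 to 7.04, Cdh18 -2.83 to 1.04, Cdh20 -0.10 to 0.41, Cdh24 -2.11 to 0.13, Cdh4 -0.27 to 0.083, Cdh9 -0.93 to 1.07, Celsr1 -0.54 to 0.30, Celsr2 -0.078 to 0.48, Celsr3 -0.45 to 0.24, Fat1 -0.55 to 0.014, Fat2 -1.72 to 0.37, Mmp2 -0.54 to 0.061, Pcdh11x -0.80 to 0.29, Pcdh17 -0.27 to 0.24, Pcdh19 -0.20 to 0.15, Vcl -0.14 to 0.69, Vezt -0.50 to 0.031, Wasf3 -0.12 to 0.56. The cause was not tested. The replicate block gave 1 higher and 6 lower genes and changed no call of a member or partner; same-numbered libraries are not tied to a litter or day, and their deviations correlated at 0.0136 (with 2 libraries a group, both pairs have the same value). With 2 libraries a group an exact two-sided permutation test cannot go below p = 0.333. Members under about 1 TPM rest on few counts, and their fold changes are imprecise.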
